A study of Saccharomyces cerevisiae with 40 samples.

Results

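Ino4 is the basic helix-loop-helix protein that, as a heterodimer with Ino2, activates the phospholipid biosynthesis genes of Saccharomyces cerevisiae. This report describes where Ino4 was bound in glucose-limited chemostats kept with little oxygen (Ox,Glu-lim) and where it was bound in aerobic glucose-limited chemostats (Glu-lim). The genes described were all those given an Ino4 value in either condition, and there were 645 of them among 7124 named genes, or 9.05%. No measured difference between the conditions was used to choose them.

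The series holds 40 ChIP-exo libraries, in which immunoprecipitated chromatin is trimmed by lambda exonuclease up to the bound protein, 2 for each of 5 tagged transcription factors (TFs) in each of 4 chemostat conditions. The 4 libraries compared here came from the strain INO4-TAP, made from the uracil auxotroph CEN.PK 113-5D by tagging the INO4 gene in situ, so that every Ino4 molecule of the cell carried a CBP-ProtA tag at its C terminus. Ox,Glu-lim had 2 libraries, with 1% (w/v) glucose given as the carbon source in the labels, and Glu-lim had 2 libraries, with 0.75% glucose. The labels and the methods differ here, since the methods give the same glucose concentration for both media. The low-oxygen cultures were sparged with nitrogen and, by the methods, were also supplied with ergosterol and Tween 80, a source of oleate, because yeast needs oxygen to make sterols and unsaturated fatty acids. Oxygen, these lipid supplements and the fermentative state of the cells therefore changed together and cannot be told apart. The deposited value is 1 number per gene and condition, the log2 signal-to-noise ratio, log2(S/N), of the highest binding event within 1200 bp of the gene, and it had been computed over both replicates. No spread between replicates could be had from these values, so no difference below has a test, and the intervals given are exact 95% binomial intervals (Clopper-Pearson) that cover counting error only. The read depth behind each value is not given.

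The Ino2-Ino4 dimer recognizes an E-box, a site with the core CANNTG, and in phospholipid genes the site usually reads CATGTG followed by A residues, which on the other strand is a run of T followed by CACATG. It is known as the inositol- and choline-responsive element. The repressor Opi1 leaves the endoplasmic reticulum and represses these promoters when phosphatidic acid is used up, which links the genes to the supply of inositol and choline. The genes under this control cover inositol synthesis and uptake, the pathways to phosphatidylserine, phosphatidylethanolamine and phosphatidylcholine, and fatty acid synthesis.

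The sequences of the sites that carry the comparison are shown first, as read from the S. cerevisiae R64 reference, 20 bp to each side of the deposited event. Capitals mark TTTCANNTG, the E-box core with the T-rich flank, where it is present, or otherwise the CANNTG core nearest the event. A sequence without capitals holds no CANNTG. TTTCANNTG was chosen after sequences shown here had been seen, and the sets were picked by value or difference. The counts per set therefore only describe the sequences shown. Of all 41 bp windows in the 600 bp before protein-coding genes, 0.974% held TTTCANNTG and 12.3% held CANNTG. Each was written on the strand that holds TTTCANNTG or, without it, the listed k-mer, which is the short sequence that the peak caller GEM assigned to the event. For each group of genes named below, every distinct event is shown, for genes of both conditions only where both events lay within 20 bp. The first set holds the genes with the highest mean, of which 4 of 5 had the T-rich flank.
ITR1 (chrIV:1445661-1445701, + strand): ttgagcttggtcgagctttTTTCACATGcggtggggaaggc
FAS2 (chrXVI:108398-108438, + strand): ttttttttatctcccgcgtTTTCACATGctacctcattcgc
FAS1 (chrXI:99801-99841, - strand): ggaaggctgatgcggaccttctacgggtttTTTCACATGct
FAA1 (chrXV:908929-908969, - strand): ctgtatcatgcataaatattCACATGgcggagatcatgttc
CPT1 (chrXIV:380962-381002, + strand): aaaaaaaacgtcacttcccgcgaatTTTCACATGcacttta
The second set holds the largest differences toward Ox,Glu-lim, in order of the difference. The T-rich flank was present in 5 of 8, and KEL2 and YMR317W had no CANNTG.
NRG2 (chrII:371545-371585, - strand): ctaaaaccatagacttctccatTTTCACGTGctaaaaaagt
RAD54 (chrVII:196944-196984, + strand): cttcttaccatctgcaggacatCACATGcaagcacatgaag
SRO77 (chrII:14039-14079, + strand): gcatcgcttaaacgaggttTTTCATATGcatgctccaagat
UPC2 (chrIV:889027-889067, + strand): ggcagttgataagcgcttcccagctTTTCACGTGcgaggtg
KEL2 (chrVII:968907-968947, + strand): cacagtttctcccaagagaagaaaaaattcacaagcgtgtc
HNM1 (chrVII:364163-364203, - strand): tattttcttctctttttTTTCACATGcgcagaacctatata
YMR317W (chrXIII:907078-907118, + strand): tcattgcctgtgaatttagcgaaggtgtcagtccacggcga
RAD2 (chrVII:1011485-1011525, + strand): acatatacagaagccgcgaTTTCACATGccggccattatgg
The third set holds the highest events of genes that were listed at Ox,Glu-lim only. None of these 8 had the T-rich flank, 4 had a CANNTG, and in 3 of those it was CACGTG.
ATF2 (chrVII:850557-850597, + strand): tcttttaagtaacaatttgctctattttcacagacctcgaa
YML018C (chrXIII:236277-236317, + strand): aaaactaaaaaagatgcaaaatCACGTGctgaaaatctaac
YKL183C-A (chrXI:99590-99630, + strand): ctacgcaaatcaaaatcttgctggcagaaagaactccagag
YNL043C (chrXIV:546107-546147, + strand): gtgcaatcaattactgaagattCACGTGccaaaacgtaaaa
DAN1 (chrX:710194-710234, - strand): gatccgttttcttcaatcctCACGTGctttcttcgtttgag
RCL1 (chrXV:307748-307788, + strand): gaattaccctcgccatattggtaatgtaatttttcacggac
COS4 (chrVI:5255-5295, - strand): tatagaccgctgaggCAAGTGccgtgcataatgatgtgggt
SOK2 (chrXIII:306557-306597, - strand): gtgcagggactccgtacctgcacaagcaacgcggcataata
The fourth set holds the largest differences toward Glu-lim. A CANNTG was present in 2 of 5, LSM7 and VMA6, without the T-rich flank.
YGR067C (chrVII:625438-625478, - strand): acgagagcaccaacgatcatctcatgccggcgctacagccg
LSM7 (chrXIV:350199-350239, + strand): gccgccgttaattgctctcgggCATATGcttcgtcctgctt
VMA6 (chrXII:1028519-1028559, - strand): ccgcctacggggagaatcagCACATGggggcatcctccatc
CUP9 (chrXVI:214732-214772, - strand): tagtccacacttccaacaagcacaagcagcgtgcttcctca
EGD1 (chrXVI:482152-482192, + strand): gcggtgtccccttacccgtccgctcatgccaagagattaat
The fifth set holds the highest events of genes that were listed at Glu-lim only. A CANNTG was present in 1 of 7, GUT1, where it had the T-rich flank.
RRT15 (chrXII:489508-489548, + strand): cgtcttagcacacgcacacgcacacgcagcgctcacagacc
THI7 (chrXII:611909-611949, + strand): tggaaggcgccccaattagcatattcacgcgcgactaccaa
GUT1 (chrVIII:38803-38843, - strand): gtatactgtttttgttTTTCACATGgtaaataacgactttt
EFT2 (chrIV:1242569-1242609, + strand): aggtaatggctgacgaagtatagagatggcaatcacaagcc
RIM4 (chrVIII:56116-56156, - strand): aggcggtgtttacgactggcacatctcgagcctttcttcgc
SIT4 (chrIV:368936-368976, + strand): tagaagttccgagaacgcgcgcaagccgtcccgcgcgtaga
PUT1 (chrXII:424247-424287, + strand): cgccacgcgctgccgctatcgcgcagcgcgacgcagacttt

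Ino4 had a larger set of genes at Glu-lim than at Ox,Glu-lim. There were 486 genes (6.82% of all genes named) with an event at Ox,Glu-lim and 534 genes (7.5%) with one at Glu-lim. Both conditions shared 375 genes (5.26% of all genes named), which were 77.2% of the Ox,Glu-lim genes and 70.2% of the Glu-lim genes. A further 111 genes were listed at Ox,Glu-lim only (1.56%), and 159 at Glu-lim only (2.23%). Since an event between divergent genes counts for each of them, these genes rested on 342 distinct events in the low-oxygen cultures and 372 in the aerobic ones, of which 144 and 161 were listed for more than 1 gene. The absence of a gene from a condition means only that no event above a log2(S/N) of 1 was kept there.

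The strong targets were common to both conditions, and the genes listed once were mostly low. Of 100 genes above 4 at Ox,Glu-lim, 99 were also listed at Glu-lim, and of 135 genes above 4 at Glu-lim, 131 were also listed at Ox,Glu-lim. The genes of 1 condition had a median log2(S/N) of 1.72 in either case, whereas the shared genes had 2.50 at Ox,Glu-lim against 3.11 at Glu-lim. Among the genes listed at Ox,Glu-lim only, 25 of 111 were above 2, and among those at Glu-lim only, 56 of 159. The genes just above the threshold were LSB1, CAC2 and NUP188 at Ox,Glu-lim (1.00 to 1.01) and YNL337W, YRF1-6 and SUE1 at Glu-lim (1.00 to 1.01), and nothing sets these apart from genes just below it.

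Over the 375 shared genes the values at Ox,Glu-lim were lower, with a median difference (Ox,Glu-lim minus Glu-lim) of -0.54 on the log2 scale. The middle of the distribution, from the first to the third quartile, ran from -1.28 to 0.16. A total of 251 genes were lower at Ox,Glu-lim and 124 were higher. At a difference of at least 1 log2 unit, which is 2-fold, 33 genes were higher at Ox,Glu-lim (8.8% of the shared genes) and 117 were higher at Glu-lim (31.2%). These came from 24 and 78 pairs of events when divergent genes were counted once. Each library pair has its own noise level, so a shift common to all genes cannot be told apart from a difference in noise. After centering on the median the counts were 52 (13.9%) and 77 (20.5%), so a surplus at Glu-lim stayed but was smaller. The levels in the conditions were related across genes, with a Pearson r of 0.78 and a Spearman rho of 0.71 over 375 genes that partly share events.

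**Figure D1:**
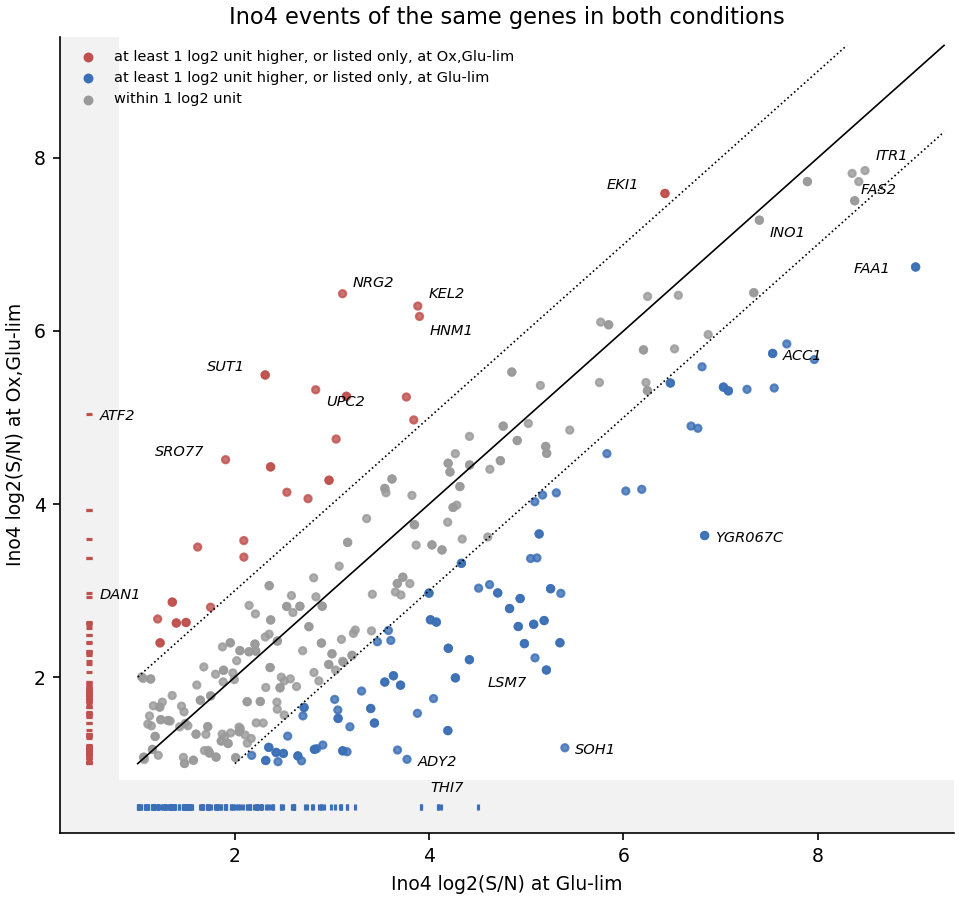
Ino4 log2(S/N) at Ox,Glu-lim (y axis) against Glu-lim (x axis), 1 point per gene for the 375 genes listed in both; genes of 1 condition lie in the gray margins, the solid line is equality and the dotted lines are 1 log2 unit away. Genes such as ITR1 and FAS2 lie near the line at the top, whereas NRG2 and SUT1 lie over 3 units above it and SOH1 4.21 units below it.

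The genes with the highest mean values were the core of inositol, fatty acid and phospholipid synthesis. ITR1, the inositol transporter, had 7.85 at Ox,Glu-lim against 8.49 at Glu-lim. FAS2 and FAS1, the subunits of fatty acid synthase, had 7.82 and 7.73 at Ox,Glu-lim against 8.35 and 8.42 at Glu-lim. CDS1, the CDP-diacylglycerol synthase, shares its promoter with RKM3, a ribosomal protein methyltransferase, and both had 7.50 and 8.38. CPT1, the cholinephosphotransferase, and its neighbor NRK1, nicotinamide riboside kinase, had 7.73 and 7.89. FAA1, a long-chain acyl-CoA synthetase, was listed with YOR316C-A and had the highest value of all at Glu-lim, 9.01, but 6.74 at Ox,Glu-lim. INO1, the inositol-3-phosphate synthase, was listed with YJL150W and had 7.28 and 7.40. Except for FAA1 these genes differed by less than 1 log2 unit.

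The pathway lists are read against the whole table, in which 9.05% of the genes named were listed in either condition, 6.82% at Ox,Glu-lim, 7.5% at Glu-lim and 5.26% in both. Of the shared genes, 66.9% were lower at Ox,Glu-lim, 31.2% were at least 1 unit higher at Glu-lim, 8.8% were at least 1 unit higher at Ox,Glu-lim, and 40% were at least 1 unit apart in either direction. Of 9 genes in the list from phosphatidylserine to phosphatidylcholine, 8 were listed, all in both conditions, with a median difference of -0.46 beside -0.54 over all shared genes. CHO1, the phosphatidylserine synthase, had 4.58 at Ox,Glu-lim against 4.27 at Glu-lim. CHO2 and OPI3, the methyltransferases, had 6.10 and 5.78 at Ox,Glu-lim against 5.77 and 6.21 at Glu-lim. SAM2, which makes the methyl donor S-adenosylmethionine, had 4.78 and 4.42. The 2 of 8 genes at least 1 unit apart, beside 40% of the shared genes, were SAH1 (5.59 and 6.81), which hydrolyzes the S-adenosylhomocysteine left over, and ADO1 (5.31 and 7.08), which phosphorylates the adenosine released. Both were higher at Glu-lim. ADO1 shares its event with SOD1, the cytosolic superoxide dismutase.

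The Kennedy pathway makes phospholipids from choline and ethanolamine. Of 13 genes in its list, which includes the supply of both, 9 were listed in both conditions, and 6 of them were at least 1 unit apart, beside 40% of the shared genes. HNM1, the choline and ethanolamine transporter, had 6.17 at Ox,Glu-lim against 3.90 at Glu-lim, and EKI1, the ethanolamine kinase, had 7.59 and 6.43. The EKI1 event is also listed for the divergent gene SWI5. The 4 in the other direction were PCT1, which activates phosphocholine with CTP (2.97 and 4.71), EPT1, a second choline- and ethanolaminephosphotransferase (3.38 and 5.11), and the phospholipases B PLB1 (2.61 and 5.08) and PLB3 (2.91 and 4.94). CKI1, the choline kinase, had 1.98 and 2.57. So the values listed for the transporter and the ethanolamine kinase were higher at Ox,Glu-lim. Those listed for PCT1, EPT1 and the deacylating enzymes were higher at Glu-lim. However, the PCT1, PLB1 and PLB3 events are also listed for ADE3, ADI1 and HTZ1 and may belong to these neighbors. At Ox,Glu-lim the events lay 752 bp from PCT1, 475 bp from PLB1 and 847 bp from PLB3, and the first lay 435 bp from ADE3.

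The 3 regulators of the pathway that were listed in both conditions differed by less than 1 unit. INO2 itself had 2.58 and 2.76, INO4 had 2.05 and 1.98, and OPI1, the repressor, had 3.79 and 4.19. UME6, another regulator of INO1, was listed at Glu-lim only, at 1.86. From the list for phosphatidic acid and CDP-diacylglycerol, 4 of 16 genes were listed, and only CDS1 was in both. ALE1, a lysophospholipid acyltransferase, and LPP1, a lipid phosphate phosphatase, were listed at Ox,Glu-lim only, at 2.30 and 1.69, and GPD2, a glycerol-3-phosphate dehydrogenase, at Glu-lim only, at 2.60.

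The 4 fatty acid synthesis genes listed in both conditions were all lower at Ox,Glu-lim, beside 66.9% of all shared genes. In the list for synthesis, elongation and desaturation, 5 of 16 genes were listed. The median difference was -1.15 over the 4 shared, beside -0.54 over all shared genes, and FAS2 (-0.53) and FAS1 (-0.70) lay near that common median. ACC1, the acetyl-CoA carboxylase that commits carbon to fatty acids, had 5.74 at Ox,Glu-lim against 7.54 at Glu-lim. OLE1, the oxygen-dependent desaturase that makes unsaturated fatty acids, had 1.94 and 3.54. FEN1 (ELO2), an elongase of very-long-chain fatty acids, was listed at Ox,Glu-lim only, at 2.60. EHT1, an acyl-CoA ethanol acyltransferase that makes medium-chain ethyl esters, went the other way, with 5.24 and 3.77.

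The sterol list held 11 listed genes of 29, beside 9.05% of the genes named, and of its 5 shared genes 3 were at least 1 unit higher at Glu-lim and 1 was so at Ox,Glu-lim. UPC2, the zinc cluster activator of sterol synthesis and of sterol uptake without oxygen, had 5.32 at Ox,Glu-lim against 2.83 at Glu-lim. AUS1 and PDR11, the sterol importers used when oxygen is lacking, were listed at Ox,Glu-lim only, at 1.81 and 1.66. HMG1, the HMG-CoA reductase, had 4.17 and 6.19, ERG5, the sterol desaturase, had 4.15 and 6.02, and ERG11, the lanosterol demethylase, had 1.74 and 3.03. ERG1, the oxygen-dependent squalene epoxidase, and ERG3, another desaturase, were listed at Glu-lim only, at 2.61 and 1.49. ERG25, a sterol methyl oxidase, and ERG6, a sterol methyltransferase, were listed at Ox,Glu-lim only, at 1.21 and 1.14. ERG20, the farnesyl pyrophosphate synthase, had 4.29 and 3.62. For the partner Ino2, AUS1, ERG25 and ERG6 were listed at Glu-lim only, at 1.35, 1.29 and 1.48, and PDR11 in neither condition. In the sphingolipid list, IPT1, which adds the last inositol phosphate, had 3.02 and 5.25, and the other 2 genes listed in both, SUR1 and ISC1, were within 1 unit.

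**Figure D2:**
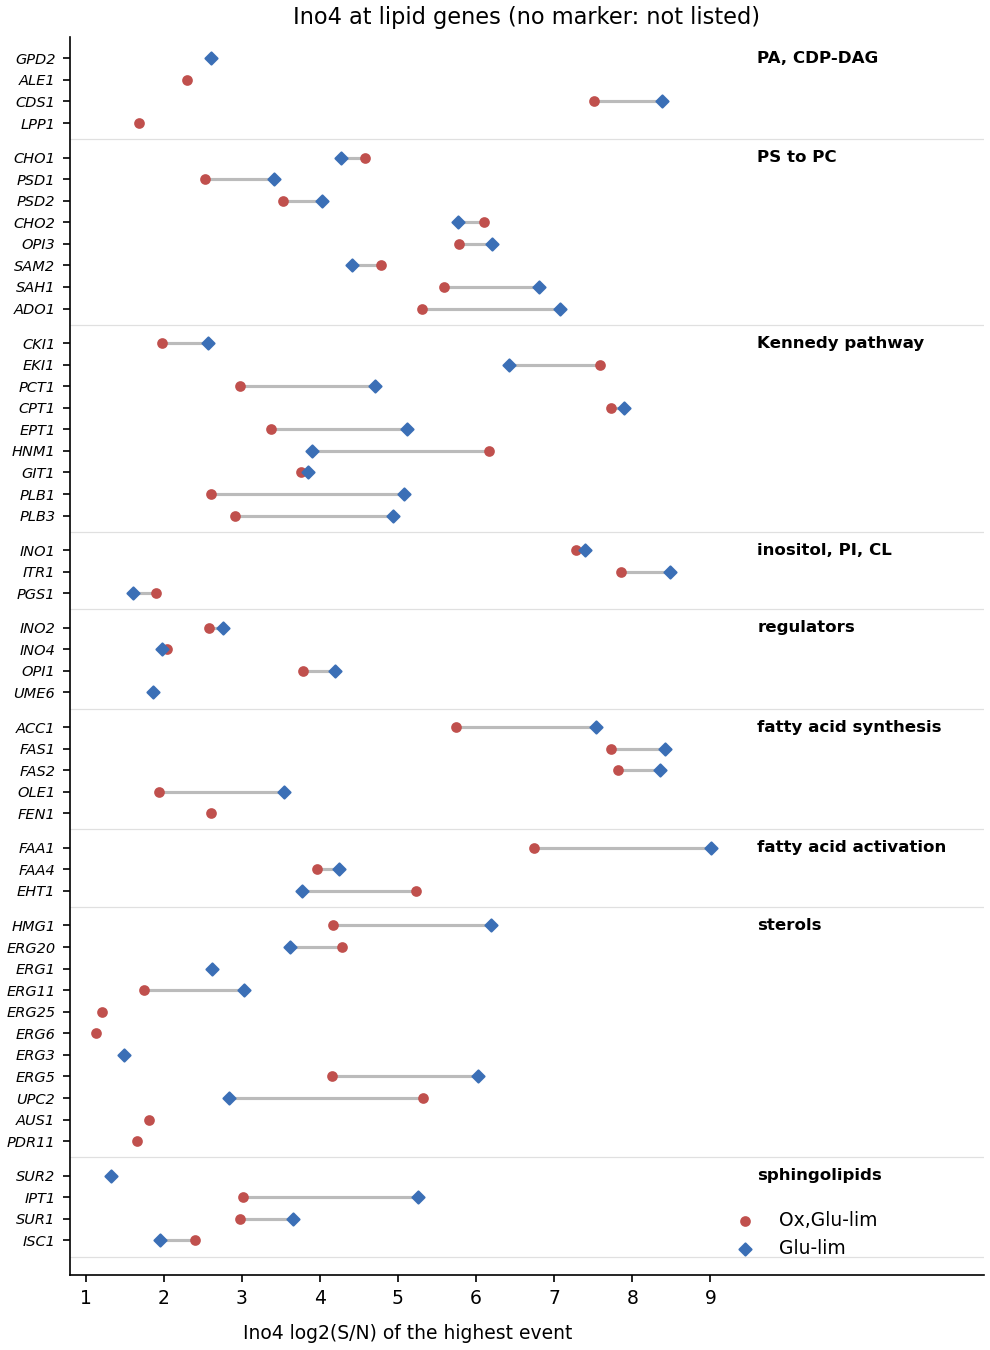
Ino4 log2(S/N) of the highest event (x axis) at lipid genes by pathway, with circles for Ox,Glu-lim and diamonds for Glu-lim; each marker is the single deposited value, a gray bar joins both conditions of a gene, and a missing marker means that the gene was not listed. HNM1 and UPC2 lie to the right at Ox,Glu-lim, and PLB1, FAA1 and HMG1 at Glu-lim.

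The low-oxygen and heme genes, a list that also holds repressors of hypoxic genes, did not share a direction. In the list of low-oxygen and heme genes, 9 of 28 were listed, of which Ox,Glu-lim had 5 and Glu-lim had 7. SUT1, a zinc cluster protein that promotes sterol uptake, had 5.49 at Ox,Glu-lim against 2.31 at Glu-lim, and the event lies 1174 bp from SUT1 and 562 bp from the divergent gene RAD54, a DNA repair translocase. DAN1, a cell wall mannoprotein of anaerobic cells, was listed at Ox,Glu-lim only, at 2.97, and TIR3, another such mannoprotein, at 1.66 through the event it shares with PDR11. MOT3, a repressor of DAN/TIR genes, had 5.85 and 7.68. ROX1, the heme-dependent repressor of hypoxic genes, ANB1, the hypoxic form of eIF5A, PAU4 and the flavohemoglobin gene YHB1 were listed at Glu-lim only, from 1.34 to 1.54. The ANB1 event is also listed for CYC1 and lies 134 bp from CYC1. The ROX1 and YHB1 events lay 731 and 747 bp from these genes, and the YHB1 event is also listed for PHO81. PAU3 had 4.58 and 5.83. PAU genes are near-identical copies, so their values are uncertain.

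The genes with the largest differences toward Ox,Glu-lim included, beside SUT1, UPC2 and HNM1, regulators and genes of no shared pathway. NRG2, a repressor in glucose repression, had 6.43 at Ox,Glu-lim against 3.11 at Glu-lim, the largest of all at 3.32 log2 units. SRO77, a protein of exocytosis and salt tolerance, had 4.51 and 1.90. KEL2, a kelch-repeat protein of mating and cell fusion, had 6.29 and 3.88. YMR317W and YMR316C-A shared an event with 5.24 and 3.15. RAD2, a nuclease of excision repair, and its neighbor TNA1, a nicotinic acid permease, had 4.43 and 2.37. In each case the events in both conditions lay within 10 bp of each other.

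The genes with the largest differences toward Glu-lim were a mixed group outside lipid synthesis. YGR067C, a zinc finger protein gene, and YGR068W-A had 3.64 at Ox,Glu-lim against 6.84 at Glu-lim, a difference of -3.20. LSM7, an RNA-binding protein of mRNA decay, and PGA2 had 2.08 and 5.21. VMA6, a subunit of the vacuolar ATPase, and the ribosomal protein gene RPL6B had 2.40 and 5.35. CUP9, the repressor of the peptide transporter gene, had 2.22 and 5.09, and EGD1 and PMA2 had 1.38 and 4.19. SOH1, a Mediator subunit, had the largest difference, -4.21 (1.18 and 5.40), but its events lay 529 bp apart, so they are not the same site. The YGR067C, LSM7 and SOH1 events lay inside protein-coding sequence. At one-site promoters (both events within 20 bp) the median difference was -1.08 over the 41 events inside protein-coding genes and -0.44 over the 173 between genes.

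Of 21 genes in the glycolysis and gluconeogenesis list, 6 were listed in both, with a median difference of -1.48 beside -0.54. Of these, 4 were lower at Ox,Glu-lim, beside 66.9% of the shared genes, and the same 4 were at least 1 unit higher at Glu-lim, beside 31.2%. ENO2, enolase, had 1.58 and 3.88, PGK1, phosphoglycerate kinase, had 1.99 and 4.27, PYC1, pyruvate carboxylase, had 4.88 and 6.77, and TPI1, triosephosphate isomerase, had 4.10 and 5.17. ENO1, the other enolase gene, had 4.47 and 4.20. HXK1, a hexokinase, had 4.14 at Ox,Glu-lim against 2.53 at Glu-lim, from events 716 bp apart. Of 21 genes in the list of hexose transporters and glucose sensors, 5 were listed in both, with a median difference of -0.02. ADY2, the acetate transporter, had 1.05 and 3.77 at 1 site. In the respiratory chain list, 7 of 30 genes were listed, all 7 at Glu-lim and 4 at Ox,Glu-lim, beside 7.5% and 6.82% of the genes named. QCR6, a subunit of complex III, had 2.58 and 4.92, but from events more than 20 bp apart (VI:225196 and VI:225283). CYC1, NDE1 and ATP2 were listed at Glu-lim only, at 1.54, 2.49 and 1.28, and the CYC1 event is the one also listed for ANB1. Only 1 of 25 genes of the citrate and glyoxylate cycles was listed, IDH1, at Glu-lim (1.91).

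The list with the lowest median was sulfur amino acid and methyl group metabolism. Of 30 genes, 10 were listed and 7 were in both, with a median difference of -1.73 beside -0.54, and 5 of these 7 were at least 1 unit higher at Glu-lim, beside 31.2% of the shared genes. MET13, a methylenetetrahydrofolate reductase, had 4.90 and 6.70, STR3, the cystathionine beta-lyase, had 5.33 and 7.27, MET6, the methionine synthase, had 5.40 and 6.48, and MET4, the activator of the sulfur pathway, had 2.79 and 4.83. The fifth was ADE3, at 2.97 and 4.71, which shares its event with PCT1. MET5, a sulfite reductase subunit, was listed at Ox,Glu-lim only, at 1.85. In nitrogen and other amino acid metabolism, 9 of 32 genes were listed, all 9 at Glu-lim and 4 also at Ox,Glu-lim, beside 7.5% and 6.82% of the genes named. In the cell wall list of 30 genes the counts were 11 at Glu-lim and 9 at Ox,Glu-lim, and GSC2, a glucan synthase subunit, had 2.39 and 4.98. These lists and the lipid lists share some events between divergent genes, and none of their medians was tested.

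Among the genes listed at Ox,Glu-lim only, ATF2 stood above the rest. ATF2, an alcohol acetyltransferase that also acetylates sterols for export, had 5.04. The next were YML018C and PSP2, which share an event at 3.93, YKL183C-A at 3.60, YNL043C and the tRNA gene tP(UGG)N1 at 3.37, DAN1 at 2.97 and RCL1, a ribosomal RNA processing factor, at 2.92. COS4, of a subtelomeric gene family, had 2.64, and SOK2, a regulator of filamentous growth, had 2.62 through an event shared with SPO20. Of the Ino4 values in the other conditions, 2 of these 111 genes were listed under nitrogen limitation (N-lim) and 1 under ethanol limitation (Et-lim), beside 2.33% and 2.5% of the genes named.

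Among the genes listed at Glu-lim only, RRT15 was highest at 4.50, but its event lies next to the ribosomal DNA repeat, where reads from the copies cannot be told apart. THI7, a thiamine transporter, had 4.12, and GUT1, the glycerol kinase that starts the use of glycerol, had 4.09 through an event shared with YHL030W-A. EFT2, elongation factor 2, and ATO3, an ammonium exporter, shared an event at 3.92. RIM4, an RNA-binding protein of meiosis, had 3.24, SIT4 and STP4 had 3.15, and PUT1, the proline oxidase, and SLS1 had 3.09. Of these 159 genes, 9 were listed at N-lim (5.66%, beside 2.33% of the genes named) and 20 at Et-lim (12.6%, beside 2.5%). For the shared genes these counts were 134 and 150 of 375.

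Where a gene was listed in both conditions, the event was usually at the same place. In 305 of 375 genes (81.3%, interval 77.0 to 85.1) both events lay within 20 bp, and in 195 they lay within 1 bp. Only 6 were at the identical base. The others of these 195 were offset by 1 bp, and at events with the listed k-mer CACATGC, 38 and 34 events at Ox,Glu-lim fell on base -1 or 1 of the 7 bases, and 32 and 24 at Glu-lim fell on base 0 or 2. These are all 72 and all 56 events listed with CACATGC, so their positions were tied to the k-mer. Agreement within a few bp is therefore partly built into the event calling. The share at 1 site was 91.7% for the 96 genes with a mean above 4 and 73.5% for the 155 with a mean up to 2.5. In 70 genes the events were farther than 20 bp apart, and in 37 farther than 100 bp.

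**Figure D3:**
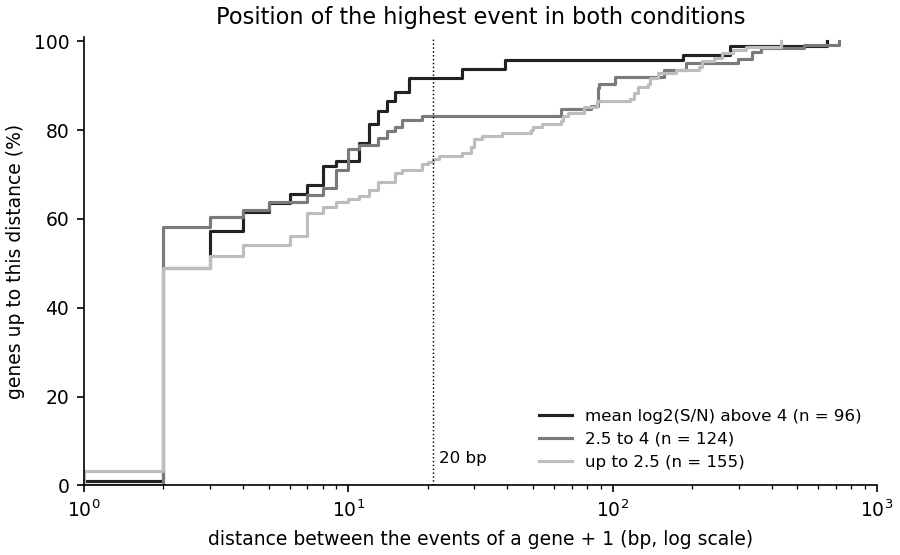
Cumulative share of genes (y axis, percent) up to each distance between the events of both conditions (x axis, bp plus 1, log scale), for 3 ranges of the mean log2(S/N). The dotted line marks 20 bp, the limit for 1 site, which 91.7% of the genes with a mean above 4 and 73.5% of those with a mean up to 2.5 reach.

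The highest gene with events apart was CDS1, where the Ox,Glu-lim event (II:297888) lay 26 bp from the Glu-lim event (II:297862). INO1 followed, with 38 bp between the Ox,Glu-lim event (X:136169) and the Glu-lim event (X:136207), both between 237 and 275 bp from the start codon. The stretch below runs from 20 bp before the Ox,Glu-lim event to 20 bp after the Glu-lim event, with TTTCANNTG in capitals, and this element lies at the Ox,Glu-lim event.
INO1 (chrX:136149-136227, + strand): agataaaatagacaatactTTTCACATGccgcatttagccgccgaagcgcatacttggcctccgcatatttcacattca
HXT6, a high-affinity hexose transporter gene, had 4.85 and 5.45 from events 183 bp apart, and reads from it are hard to separate from those of its near copy HXT7. ICY2 and YPL250W-A had 4.73 and 4.91 from events 277 bp apart, and TEC1, a regulator of filamentous growth, had 4.75 and 3.04 from events 362 bp apart. GIT1, the permease for glycerophosphoinositol, had 3.76 and 3.85 from events 87 bp apart. Since only the highest event of a gene is deposited, a second site at the same promoter may be hidden in either condition.

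The listed k-mers differed between the conditions in how often one was assigned. An event with a k-mer was listed for 384 of 486 genes at Ox,Glu-lim (79.0%, interval 75.1 to 82.5) and for 316 of 534 at Glu-lim (59.2%, 54.9 to 63.4). CACATGC was the most frequent in both, with 100 genes at Ox,Glu-lim against 74 for Glu-lim. CACGTGC, the E-box with a CG center, was listed for 46 and 26 genes, and CATATGC for 24 and 27. CACAAGC, which lacks the CANNTG core, was listed for 21 genes at Ox,Glu-lim and for none at Glu-lim. In the reference, CACAAGC lay within 20 bp of 14 of 372 Glu-lim events and 16 of 342 Ox,Glu-lim events. At the 214 one-site promoters the same k-mer was listed in both conditions at 120, a k-mer at Ox,Glu-lim only at 33, at Glu-lim only at 7, none in either at 43, and different k-mers at 11.

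Read from the reference instead of the k-mer column, CACATGC and CACGTG differed between the conditions at the events without a counterpart, and CATATGC did not stand apart. CACATGC, on either strand, lay within 20 bp of 23.7% of the 342 events at Ox,Glu-lim (interval 19.3 to 28.6) and of 18.0% of the 372 at Glu-lim (14.2 to 22.3), and these intervals overlap. The share over all 84011 windows of 41 bp in the 600 bp before protein-coding genes was 0.275%. Events listed with a k-mer were placed by it, so the shares at events are not independent of the event calling. For events that both conditions share within 20 bp, the share was 27.6% of 214. For events without a counterpart within 20 bp, it was 17.2% of 128 at Ox,Glu-lim (11.1 to 24.9) and 5.06% of 158 at Glu-lim (2.21 to 9.73). CACGTG was found at 6.54% of the shared events (3.62 to 10.7), at 19.5% of those without a counterpart at Ox,Glu-lim (13.1 to 27.5) and at 4.43% of those at Glu-lim (1.80 to 8.92), beside 0.487% of all windows. CATATGC lay near 5.56% of all Ox,Glu-lim events and 5.91% of all Glu-lim events. CACGTG was thus more frequent at the Ox,Glu-lim events without a counterpart than at the shared events, with intervals that do not overlap.

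The median difference also varied with the E-box, but this was not separated from the level or the base composition of the sites. At the 59 one-site promoters with CACATGC the median difference was -0.11, from 4.03 at Ox,Glu-lim against 3.84 at Glu-lim as the medians of the levels. At the 36 with CACATG but not CACATGC it was -0.86, and at the 13 with CACGTG but not CACATG it was 0.43. At the 106 with neither it was -0.72. CACGTG promoters were thus the only one of these 4 classes with a median above 0, although the 13 values ran from -1.15 to 3.32. Of these 13, 7 had a mean log2(S/N) up to 3. The median at CACATGC promoters was 0.15 over the 22 with a mean up to 3, -0.11 over the 19 from 3 to 5 and -0.66 over the 18 above 5.

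The core CANNTG lay within 20 bp of 16 of the 18 one-site promoters that were at least 1 unit higher at Ox,Glu-lim (88.9%, interval 65.3 to 98.6), 85 of the 130 within 1 unit (65.4%, 56.5 to 73.5) and 36 of the 66 at least 1 unit higher at Glu-lim (54.5%, 41.8 to 66.9), and the intervals of the first and the last overlap. It lay near 54 of the 83 events of genes listed at Ox,Glu-lim only (65.1%, 53.8 to 75.2) and near 34 of the 111 at Glu-lim only (30.6%, 22.2 to 40.1), against 12.3% of all windows. These last intervals do not overlap. TTTCANNTG was chosen after sequences above had been seen, so its counts are a description and are given without the sites shown or looked at. Of the remaining one-site promoters it was found at 2 of 9 that were higher at Ox,Glu-lim, at 20 of 126 within 1 unit and at 5 of 59 that were higher at Glu-lim. At the remaining events of genes of 1 condition it was found at 10 of 75 for Ox,Glu-lim and 1 of 104 for Glu-lim, beside 0.974% of all windows. With 9 promoters in the first class, no difference between it and those within 1 unit was detectable. With the sites shown or looked at, the first count is 8 of 18, of which 6 came from those sites.

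Base composition moved with these classes. In the 201 bp centered on the event, the median G+C content was 38.1% at the one-site promoters higher at Ox,Glu-lim, 41.3% at those within 1 unit and 47.5% at those higher at Glu-lim. It was 37.8% at the events listed at Ox,Glu-lim only and 48.3% at those listed at Glu-lim only, beside 36.8% over windows of this length before protein-coding genes. Split at the median G+C content of 42.8%, the 114 one-site promoters with less had a median difference of -0.12 and the 100 with more had -0.95. Among the 114, the median was -0.08 over the 37 without CANNTG and -0.23 over the 51 with CANNTG but not TTTCANNTG. Among the 100, these medians were -1.04 over 40 and -0.93 over 49. The promoters with TTTCANNTG, including the sites shown, had 0.20 over 26 and -0.29 over 11. These medians rest partly on sites that were seen when the motif was chosen. Without the sites shown or looked at, and with no split by G+C content, the median was -0.25 over 27 promoters with TTTCANNTG. It was -0.42 over 95 with CANNTG but not TTTCANNTG and -0.74 over 72 without CANNTG.

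**Figure D4:**
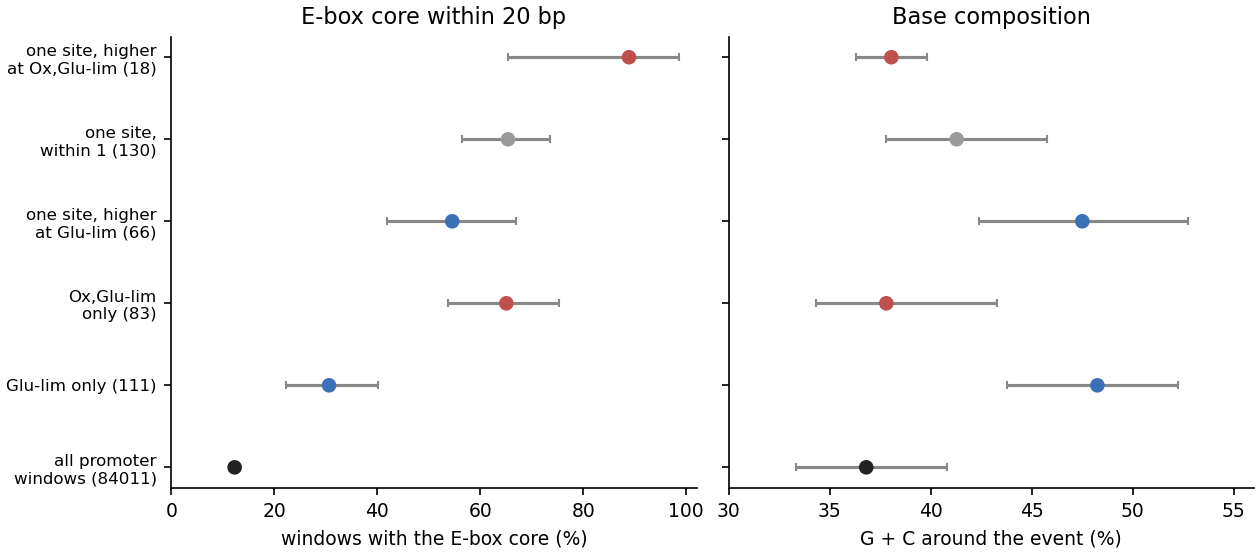
Left, percent of 41-bp windows with the E-box core, with exact 95% binomial intervals as bars; right, median G+C percent of the 201 bp centered on the event with quartiles as bars, for 5 classes of Ino4 events and for all promoter windows, with the number of motif windows in parentheses. The core is near 65.1% of events listed at Ox,Glu-lim only and 30.6% of those at Glu-lim only, and the median G+C content of these is 37.8% and 48.3%.

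Ino2, the partner of Ino4, was measured in separate strains and libraries, so its values bear on the same genes without sharing a sample. Ino2 was listed for 247 genes at Ox,Glu-lim (3.47% of all genes named) and 630 at Glu-lim (8.84%). Of the 375 genes that Ino4 had in both conditions, Ino2 was listed at 194 at Ox,Glu-lim (51.7%) and at 341 at Glu-lim (90.9%). Of the 111 genes at Ox,Glu-lim only, Ino2 was listed at 15 at Ox,Glu-lim and at 34 at Glu-lim. Of the 159 genes at Glu-lim only, Ino2 was listed at 16 and 103. The Ino2 event lay within 20 bp of the Ino4 event at 86.6% of the shared genes listed for both proteins at Ox,Glu-lim and at 79.8% of those at Glu-lim. Over the 192 genes listed for both proteins in both conditions, the median difference was -1.15 for Ino2 and -0.34 for Ino4. The Ino2 values were thus lower at Ox,Glu-lim by more than those of Ino4. Each library pair has its own noise level, so this gap cannot be told apart from a difference in noise.

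The differences of Ino4 and Ino2 were related across promoters, with exceptions among the largest. Across 112 promoters with 1 Ino4 site, listed for both proteins in both conditions, the differences had a Pearson r of 0.56 and a Spearman rho of 0.55. This is a description over sites that share base composition and, within a protein, libraries. The Ino2 events were not required to lie at the Ino4 site. Of the 33 genes at least 1 unit higher at Ox,Glu-lim for Ino4, 25 were listed for Ino2 in both conditions, and 16 of these were higher at Ox,Glu-lim for Ino2 too. Of the 117 in the other direction, 57 were listed for Ino2 in both, and 45 of these (78.9%) were at least 1 unit higher at Glu-lim for Ino2. Among genes within 1 unit for Ino4 this share was 56 of 110 (50.9%), and 15 of the 110 were higher at Ox,Glu-lim for Ino2. HNM1 had 3.79 at Ox,Glu-lim against 3.21 at Glu-lim for Ino2, SRO77 had 2.83 and 2.35, and UPC2 had 3.12 in both, so their Ino2 differences were smaller than those of Ino4. For HNM1 the Ino2 event at Glu-lim lay 61 bp from the Ino4 event, so its Ino2 values come from different sites. RAD54 and SUT1 had 4.08 and 1.71 for Ino2, but the Ino2 event at Glu-lim lay 416 bp from the Ino4 event. KEL2 had 3.24 and 3.62 for Ino2, the opposite sign to Ino4, from events within 3 bp of the Ino4 events. Its Ino2 difference of -0.38 still lay above the Ino2 median of -1.15. NRG2 was also opposite in sign to Ino4, with 2.26 and 4.32 for Ino2, but its Ino2 event at Glu-lim was another site, 221 bp away. YGR067C had 3.59 and 6.18, from the same position as Ino4 within 1 bp.

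**Figure D5:**
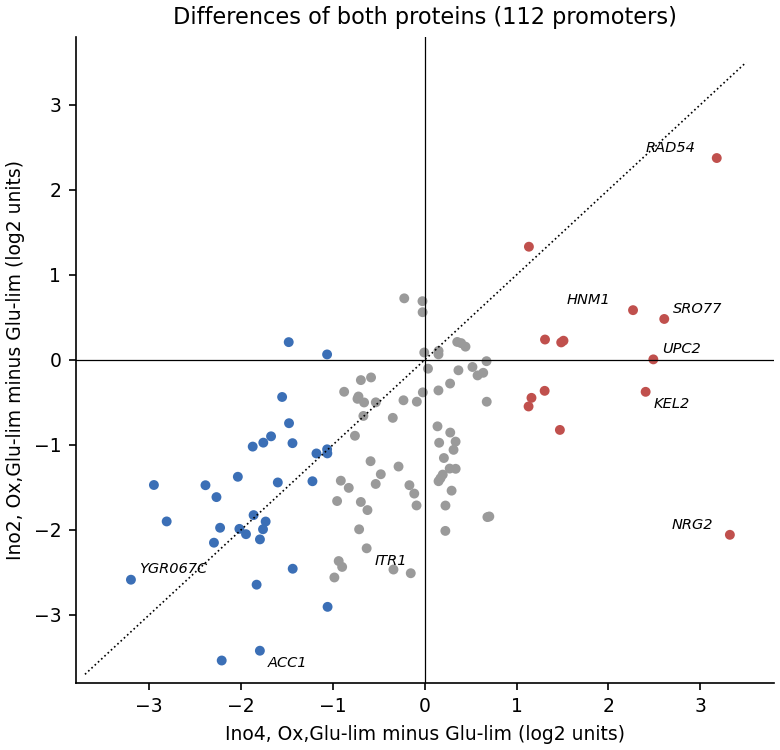
Difference Ox,Glu-lim minus Glu-lim (log2 units) of Ino2 (y axis) against that of Ino4 (x axis) at the 112 promoters with 1 Ino4 site that were listed for both proteins in both conditions; red and blue mark Ino4 differences of at least 1 unit, and the dotted line is equality. Many points lie below the dotted line, and NRG2, higher at Ox,Glu-lim by 3.32 units for Ino4 but lower for Ino2, is far below it. The Ino2 events may lie at other sites, as for NRG2 at Glu-lim, 221 bp from the Ino4 event.

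The base composition moved with the difference between the conditions in the Ino2 data as well. Split at the median G+C content, the Ino2 difference was -0.49 over the 63 one-site Ino2 promoters with less and -1.28 over the 63 with more. The Ino2 events of genes at Ox,Glu-lim only had a median G+C content of 36.3% (16 events) and those at Glu-lim only 45.3% (285 events). The part of base composition in the Ino4 differences was not tested.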

How the data were processed

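Ino4 binding was measured by ChIP-exo in 2 libraries each at Ox,Glu-lim and Glu-lim. The authors aligned reads with Bowtie2 to S. cerevisiae R64, trimmed the 3′ ends, called events with GEM over both replicates, divided each signal by a noise level averaged per replicate, and deposited the log2 signal-to-noise ratio of the highest event within 1200 bp of each gene where it passed 1. Tool versions are not given in the sources used here. The deposited tables also hold event positions, distances and k-mers, which the authors took from GEM and the gene annotation. Read depth is not given, so the precision of a single value is unknown, and no test between conditions was possible.

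The tables for Ino4 and Ino2 were read with Python 3.11.15, pandas 2.3.3 and NumPy 2.4.6. Exact 95% binomial intervals came from SciPy 1.17.1, and plots from matplotlib 3.10.9. The scripts were tested on simulated data. 2 lines that name no gene were left out. Sequences and gene positions came from RefSeq's R64 assembly, where 595 of the 645 genes were matched by name or synonym. All listed k-mers were found within 20 bp of their events. Motifs were searched on both strands in 41 bp windows, with windows in the 600 bp before protein-coding genes as the background. The 21 gene lists hold 446 genes. The members, the lists and the motifs were chosen with earlier results of these data known. Genes were named if they were in a list, among the 10 highest in the mean, in either difference, in either condition alone or among genes with events over 20 bp apart, or among the 3 nearest above the threshold in each condition alone. Thresholds, distances, the unit counted and motif windows were varied.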

Additional observations from a re-analysis of the deposited data

How the results depend on the processing

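Each deposited value is already 1 number over both replicates. No paired analysis was possible because no value per replicate was used here, and for the same reason no replicate could be left out. Of 154 comparisons of 59 results with an alternative, 134 stayed within the set limits and 20 moved. A reversal could be recorded only for medians and single-gene differences of at least 1 log2 unit. None was recorded, but most results could not have given one, so this says little about direction. With a threshold of 2 in place of 1, Ox,Glu-lim had 268 genes and Glu-lim had 351, the genes of Ox,Glu-lim only were 11.6% of the genes then listed and those of Glu-lim only 32.5% (30.1% at a threshold of 1.5), the genes at least 1 unit apart were 21 and 70, the share at 1 site was 87.8%, and the share of Ox,Glu-lim events near CACATGC was 29.0%. Setting absent genes to 1 gave a median difference of -0.37 over all members. Centering on the median gave 52 genes higher at Ox,Glu-lim and 77 higher at Glu-lim, and a limit of 1.5 log2 units gave 16 higher at Ox,Glu-lim. Limits of 5, 10 and 50 bp for 1 site gave 61.1%, 72.0% and 85.3%. The core CACATG in place of CACATGC lay near 40.1% of Ox,Glu-lim events and 31.2% of Glu-lim events. With an Ino4 threshold of 1.5, chosen after seeing the data, Ino2 was listed at Glu-lim for 95.2% of the shared genes and 79.0% of those at Glu-lim only. The unknown depth limits the reading of values near the threshold and of counts of genes found in 1 condition.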
